A study of Mus musculus with 16 samples.

Results

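The comparison described here set the libraries labelled YAP2S OHT against the untreated libraries labelled MycER, 4 of the 16 RNA-sequencing libraries of the study. The pair was chosen after earlier results of these data were known, because 3 genes that mark the cells carrying the YAP mutant, Bex1, Wnt7a and Fgfbp1, were low in both groups. The cells were mouse embryonic fibroblasts with MycER, in which Myc is joined to the hormone-binding part of the estrogen receptor and waits for 4-hydroxytamoxifen (OHT). In the groups labelled YAP2S they are said to carry, in addition, a YAP mutant without serines that LATS kinases phosphorylate. OHT (400 nM) and the ROCK inhibitor Y27632 (Y27, 50 µM) were given alone, together or not at all to each population, which makes 8 groups of 2 libraries. The MycER libraries had neither compound, the YAP2S OHT libraries are labelled as carrying the YAP mutant and as treated with OHT alone, and the MycER transgene is common to both. The study describes starved, subconfluent cells kept in low serum, and how long OHT or Y27 was applied, whether the cells are 1 clone, and whether the replicates were separate cultures are not given in the sources used here. The p-values therefore measure the spread between these libraries, which may be technical.

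As background, Myc pairs with Max and binds E-boxes, most often CACGTG, near the promoters of genes for ribosome assembly, RNA polymerase I, nucleotide synthesis and entry into S phase. YAP is a co-activator without a DNA-binding domain of its own and acts through TEAD factors on genes such as Ctgf, Cyr61 and Ankrd1. Its location depends on LATS phosphorylation and on actin tension, which ROCK helps to build.

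Values are RPKM, a read count divided by the length of the gene in kilobases and by the M (mega) reads that a library assigned to genes. The reads behind the values could be recovered, and depth was 1.76 and 7.08 M reads in the MycER libraries and 12.59 and 9.83 M in the YAP2S OHT libraries, within a range of 1.76 to 15.71 M over all 16. The highest RPKM of a library fell with depth, from 662.6 in MycER replicate 1 to 141.0 in YAP2S OHT replicate 1, so values of abundant genes were compressed in the deep libraries. Changes are therefore given on log2(RPKM + 1) after quantile normalization over the 16 libraries, as the YAP2S OHT mean minus the MycER mean ± standard error (SE), and a change on this scale understates that of a low gene. The median distance between replicates on this scale was 0.175 in MycER, 0.062 in YAP2S OHT and 0.261 in the libraries labelled YAP2S OHT Y27, against 0.068 to 0.111 in the other groups. Depth differed between MycER and YAP2S OHT, so that group and depth cannot be told apart in this pair beyond what the normalization removed.

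The 3 genes that chose the pair are shown first, as a description without a test. Bex1, a brain-expressed X-linked adaptor protein, had RPKM of 0 and 0.49 in the MycER libraries and 1.01 and 0.47 in the YAP2S OHT libraries, which rest on 0, 3, 11 and 4 reads. In the libraries labelled YAP2S it stood at 15.97 and 16.10, and in those labelled MycER OHT at 19.03 and 19.77. Wnt7a, a secreted Wnt ligand, was at 0 and 0.267 in MycER and at 0.175 and 0.288 in YAP2S OHT, against 8.52 and 7.45 in the YAP2S libraries and 16.8 and 14.4 under MycER OHT. Fgfbp1, a secreted carrier of fibroblast growth factors, was at 0 and 0.976 in MycER and at 0.617 and 0.351 in YAP2S OHT, against 12.6 and 10.8 in the YAP2S libraries and 12.1 and 11.1 under MycER OHT. The libraries with OHT thus lay on the side of the other label, YAP2S OHT with the low values of MycER and MycER OHT with the high values of YAP2S. In the shallow MycER replicate 1 a count of 0 allows, at 3 reads, up to 1.97 RPKM of Bex1, 0.537 of Wnt7a and 1.47 of Fgfbp1, a limit for counting error only. Nearest to the gap between both kinds of library, the highest low value of Bex1 was the 1.01 of YAP2S OHT replicate 1 and the lowest high value the 7.49 of MycER OHT Y27 replicate 2. For Wnt7a these were 0.571 and 2.04, and for Fgfbp1 0.976 and 4.28.

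**Figure D1:**
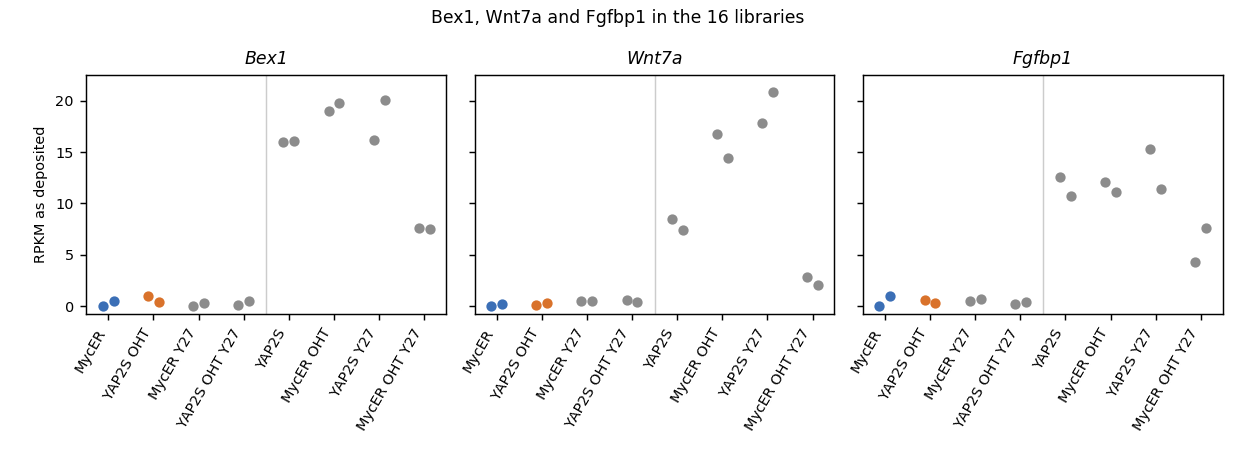
RPKM as deposited (vertical axis) of Bex1, Wnt7a and Fgfbp1 in the 8 groups (horizontal axis), 1 point per library, with MycER in blue and YAP2S OHT in orange. The 4 groups left of the line, YAP2S OHT among them, stay at or below 1.01 for Bex1, and the 4 on the right, MycER OHT among them, reach at least 7.49.

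The doubt about the labels went beyond these 3 genes. A wider set was chosen on libraries outside the pair, those labelled YAP2S Y27 against MycER Y27, with an adjusted p under 0.05 and a log2 change above 1 in size, a rule that 3.52% of all 13028 genes met. Without the 3 genes 456 remained, and in 306 of them the untreated MycER and YAP2S means lay more than 0.5 apart. In 242 of the 306 (79.1%) both YAP2S OHT libraries lay nearer the MycER mean than the YAP2S mean, and in 49 nearer the YAP2S mean. On a scale with MycER at 0 and YAP2S at 1, their median position was 0.07 and 0.08. The libraries labelled MycER OHT lay nearer YAP2S in 71.9% of these genes, with medians of 0.87 and 0.84. With the OHT labels exchanged, the pair would compare MycER cells with and without OHT, in the absence of Y27. With the labels as given it would compare cells that differ in both the YAP mutant and OHT. Groups keep their labels in all that follows.

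Beyond the 3 genes, 13025 genes were tested, and 2231 of them (17.1%) passed an adjusted p of 0.05 by limma with Benjamini-Hochberg adjustment. Of these, 1261 (9.68% of the genes tested) were higher in YAP2S OHT and 970 (7.45%) lower. The balance of directions depended on the scaling. As deposited, without quantile normalization, 2094 were higher and 470 lower, 81.7% higher against 56.5%, and the median of all genes stood at 0.14 against -0.03. In that scaling the genes above a mean of 50 RPKM had a median of -0.24 and those from 5 to 20 RPKM one of 0.24. The same direction was called as deposited, after quantile normalization, after cyclic loess and by voom on the recovered reads, the 4 scalings, in 862 higher genes (6.62%) and 191 lower genes (1.47%). The call held without each of the 4 libraries in turn in 380 higher (2.92%) and 83 lower genes (0.637%). The total fell to 1006 without MycER replicate 1, to 549 without YAP2S OHT replicate 1 and to 646 without YAP2S OHT replicate 2, and it was 562 in a fit to the 4 libraries alone. Of the 67 genes that are named below by rule and passed the threshold, 58 passed in all 4 scalings, 45 without each library in turn, and 42 in both.

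**Figure D2:**
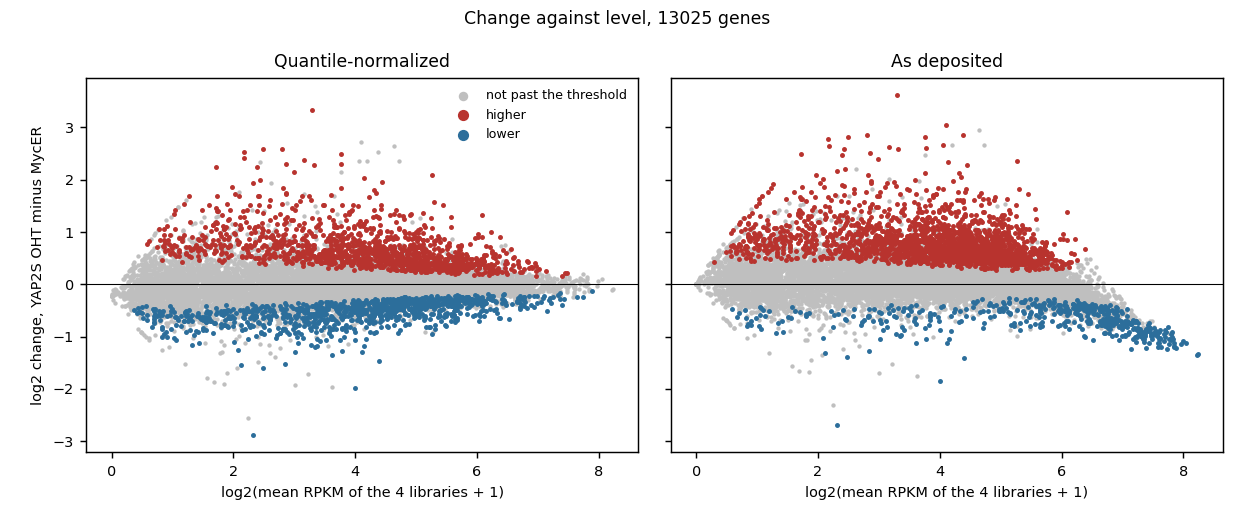
Log2 change of YAP2S OHT minus MycER (vertical axis) against the log2 of the mean RPKM of the 4 libraries plus 1 (horizontal axis), 1 point per gene, with genes past an adjusted p of 0.05 in red where higher and blue where lower. After quantile normalization (left) 1261 genes are higher and 970 lower, and as deposited (right) the most abundant genes bend below 0 and 2094 are higher and 470 lower.

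Rasl11a, a small GTPase of the Ras-like family, showed the highest change of the genes that met the rule for naming. It had RPKM of 0 and 1.14 in the MycER libraries and 17.3 and 16.7 in the YAP2S OHT libraries, a log2 change of 3.34 ± 0.24 (adjusted p = 2.67e-05). These values rest on 0, 11, 299 and 225 reads. Il15ra, the alpha chain of the interleukin 15 receptor, followed the same course, from 1.07 and 1.26 to 11.8 and 10.9, a change of 2.30 ± 0.12 (adjusted p = 1.88e-06). Both libraries of YAP2S OHT stood above both of MycER in each gene, which the rule for naming required. Pdxp, a phosphatase of pyridoxal phosphate and of cofilin, was the most abundant of the group, at 10.8 and 12.3 in MycER and 61.3 and 65.1 in YAP2S OHT, with a change of 2.09 ± 0.11 (adjusted p = 1.88e-06). Ccdc85c rose by 2.38 ± 0.29 and Tmem238 by 2.14 ± 0.29. In the MycER libraries Ccdc85c rested on 5 and 13 reads and Tmem238 on 1 and 22. Dlk2, a Delta-like protein of the Notch family, rose by 2.03 ± 0.28, from 3.03 and 7.31 to 27.6 and 28.7. Pomgnt2, a glycosyltransferase that acts on O-mannosylated dystroglycan, rose by 1.96 ± 0.16, and St6galnac4, a sialyltransferase, by 1.81 ± 0.10. Smtnl2, a smoothelin-like protein, and Prr7 each rose by 1.85, from 9 and 27 reads of Smtnl2 and 4 and 76 of Prr7 in the MycER libraries. The highest adjusted p among these 10 genes was the 0.00516 of Prr7, whose call was the only one of the 10 to be lost in a fit to the 4 libraries alone (adjusted p = 0.0898). All 10 kept their call without each library in turn.

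Among the lowest changes, Trp53inp1, a p53-induced protein with a part in autophagy, was at 8.35 and 10.0 RPKM in MycER and at 3.31 and 3.08 in YAP2S OHT, a change of -1.52 ± 0.19 (adjusted p = 0.00049). Ccng2, cyclin G2, which FOXO factors induce in resting cells, went from 13.5 and 18.1 to 6.83 and 6.52, a change of -1.35 ± 0.17 (adjusted p = 0.000452). The libraries of both groups were separate in each gene, which the rule for naming required. Armcx1, which links mitochondria to their transport along axons, fell by 1.30 ± 0.13 on the log2 scale, Arhgap18, a GTPase-activating protein for RhoA, by 1.29 ± 0.23, and Fam214b by 1.27 ± 0.17. These 5 genes kept their call in the 4 scalings and without each library in turn. Samd9l, an interferon-induced gene, fell by 1.20 ± 0.27 (adjusted p = 0.0126) but not past the threshold without MycER replicate 1 (adjusted p = 0.103) or without either YAP2S OHT library (0.0954 and 0.0628). Ly96, the co-receptor of the endotoxin receptor, fell by 1.18 ± 0.24 and lost its call without either YAP2S OHT library (adjusted p = 0.0594 and 0.0623).

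The other genes of the lowest 10 moved with depth. Lars2, the leucyl-tRNA synthetase of mitochondria, stood at 48.0 in MycER replicate 1 and 13.8 in replicate 2, against 7.97 and 10.4 in YAP2S OHT, a change of -1.46 ± 0.41 (adjusted p = 0.0327). Without MycER replicate 1 its change was -0.65 (adjusted p = 0.224). Over the study it was at 25.5 to 48.0 in the 3 libraries with fewer than 4 M reads and at 6.08 to 15.8 in the other 13. Zfp488, a zinc finger gene, and Olfr613, an olfactory receptor gene, had the same shape, at 25.2 to 32.2 and 11.5 to 14.0 in the 3 shallow libraries and at most 16.2 and 7.77 in the others. Their changes of -1.18 and -1.12 became -0.67 and -0.53 without MycER replicate 1, with adjusted p of 0.11 and 0.23. None of the 3 passed without either YAP2S OHT library, with adjusted p from 0.0607 to 0.206. The part of depth in these 3 genes was not tested.

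**Figure D3:**
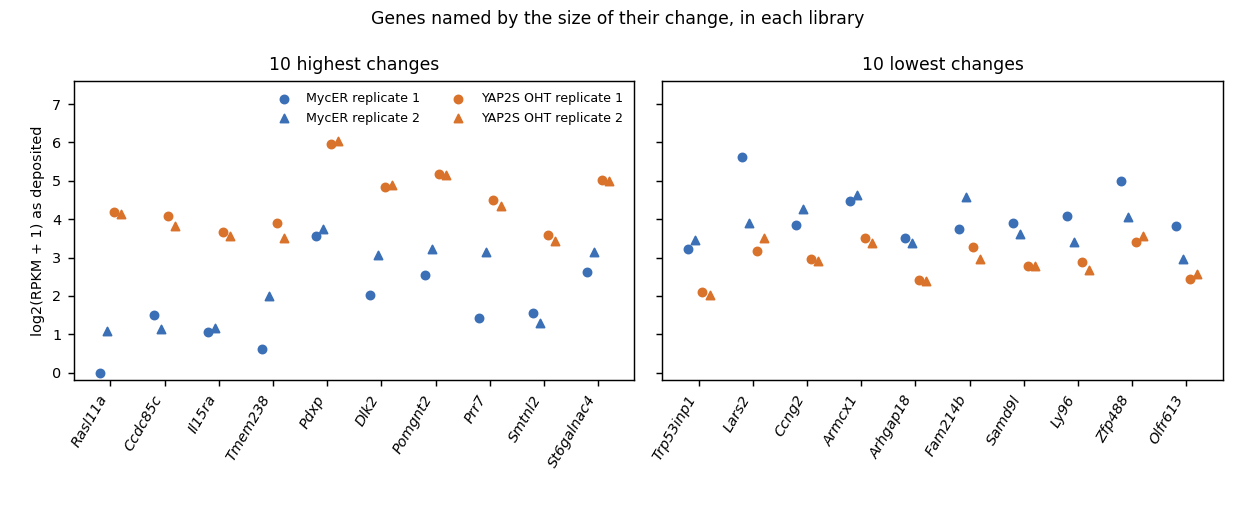
Log2(RPKM + 1) as deposited (vertical axis) of the genes with the 10 highest (left) and 10 lowest (right) changes under the rule for naming, 1 symbol per library, with MycER in blue, YAP2S OHT in orange, circles for replicate 1 and triangles for replicate 2. The groups are apart in all 20 genes, as the rule asked, and Lars2, Zfp488 and Olfr613 have their highest value in MycER replicate 1.

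Factors that build ribosomes were higher as a group. Of 49 measured genes for ribosome assembly and rRNA processing, 24 were higher in YAP2S OHT and none lower, with a median of 0.35 against -0.03 over all genes, beside a background of 9.68% higher. As deposited 22 were higher and none lower, and 15 were called higher in all 4 scalings, against 6.62% of all genes. Of the 49, 36 had both YAP2S OHT libraries above both MycER libraries, against 40.8% of all genes. Rrp9, which belongs to the U3 snoRNP that processes pre-rRNA, was at 49.4 and 54.5 RPKM in MycER and 90.1 and 101.6 in YAP2S OHT, a log2 change of 1.0 ± 0.10 (adjusted p = 0.000159). Cirh1a, a part of the small-subunit processome, went from 44.6 and 44.4 to 61.4 and 64.5, a change of 0.47 ± 0.06 (adjusted p = 0.000588). Heatr1, of the same complex, was at 26.5 and 33.5 in MycER and 47.4 and 47.9 in YAP2S OHT, a change of 0.47 ± 0.08 (adjusted p = 0.0043, and 0.0503 without YAP2S OHT replicate 1). The spread between replicates of these 3 genes was smaller than the distance between the groups. Wdr74, a factor of the large subunit, rose by 0.52 ± 0.06, although neither the 0.34 as deposited (adjusted p = 0.0559) nor the 0.23 by voom (0.235) passed. Without YAP2S OHT replicate 1 the count of the group was 10, all higher, and without replicate 2 it was 15.

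Promoters were searched for the element that Myc and Max bind. The E-box CACGTG, the same on both strands, was looked for in RefSeq windows of 250 bases before and 50 after each start. It was present for 166 of 1008 higher genes with a window (16.5%), 85 of 758 lower genes (11.2%) and 1162 of 10035 tested genes (11.6%). In the lists for ribosome assembly, RNA polymerase I and nucleotide synthesis it was present for 18 of 86 genes (20.9%), and for 8 of the 40 of them that were called higher. The 250 bases before the start of 3 called members are shown because they carry the element, and they were chosen after the search. In 5′ to 3′ direction of the gene, with CACGTG in capitals, on build GRCm38.p6, they are those of Nop2, an rRNA methyltransferase (chr6:125131633-125131882, plus strand, element 60 bases before the start), Imp4, which joins the U3 snoRNP (chr1:34439579-34439828, plus strand, 121 bases before), and Cd3eap, a subunit of RNA polymerase I (chr7:19359484-19359733, minus strand, 218 bases before).
Nop2: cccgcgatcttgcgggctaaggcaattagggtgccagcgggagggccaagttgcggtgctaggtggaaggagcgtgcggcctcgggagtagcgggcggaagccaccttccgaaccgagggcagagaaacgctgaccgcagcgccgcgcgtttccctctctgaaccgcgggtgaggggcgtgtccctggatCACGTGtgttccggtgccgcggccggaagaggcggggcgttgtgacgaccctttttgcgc
Imp4: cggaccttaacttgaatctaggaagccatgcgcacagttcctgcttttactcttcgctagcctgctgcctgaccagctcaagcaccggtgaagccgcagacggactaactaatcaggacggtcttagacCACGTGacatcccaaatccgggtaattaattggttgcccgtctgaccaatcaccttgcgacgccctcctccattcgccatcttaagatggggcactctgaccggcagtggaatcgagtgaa
Cd3eap: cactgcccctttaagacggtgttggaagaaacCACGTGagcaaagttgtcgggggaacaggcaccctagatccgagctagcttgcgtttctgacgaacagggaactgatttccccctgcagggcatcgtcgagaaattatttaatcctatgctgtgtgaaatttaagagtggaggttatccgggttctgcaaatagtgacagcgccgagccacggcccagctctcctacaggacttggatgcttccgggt

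The transcripts of these 3 genes differed in how far they moved. Imp4 was at 20.4 and 21.6 RPKM in MycER and 40.1 and 40.0 in YAP2S OHT, a change of 0.65 ± 0.11 (adjusted p = 0.00269). Cd3eap was at 8.58 and 21.5 against 32.1 and 32.4, a change of 0.86 ± 0.21 (adjusted p = 0.0166), which was 0.43 without MycER replicate 1 (adjusted p = 0.0649) and did not pass without either YAP2S OHT library (0.0948 and 0.0882). Nop2 was at 98.98 and 84.6 against 93.9 and 108.1, so that the groups overlapped as deposited, and its change of 0.52 ± 0.06 (adjusted p = 0.000464) was 0.14 without quantile normalization (adjusted p = 0.482) and 0.26 by voom (0.103).

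RNA polymerase I, which transcribes the rRNA precursor, had 9 of 15 measured subunits and factors higher and none lower, against 9.68% higher over all genes, with a median of 0.33. Over all genes 40.8% had both YAP2S OHT libraries above both MycER libraries, and 6.62% were called higher in all 4 scalings. All of the 15 but 4 had both YAP2S OHT libraries above both MycER libraries, 7 were called in all 4 scalings, and 3 without each library in turn. These 3 were Polr1b, Polr1e and Taf1c. The list had 4 higher without MycER replicate 1 and 3 without either YAP2S OHT library. Polr1b, the second largest subunit, was at 22.7 and 26.8 RPKM in MycER and 54.1 and 56.2 in YAP2S OHT, a change of 0.93 ± 0.08 (adjusted p = 3.95e-05). Taf1c, part of the factor SL1 that brings the polymerase to rDNA promoters, went from 10.5 and 14.3 to 38.3 and 35.2, a change of 1.19 ± 0.12 (adjusted p = 0.000159). Polr1e, a subunit that aids initiation, went from 11.2 and 15.7 to 30.6 and 33.5, a change of 0.89 ± 0.11 (adjusted p = 0.000347).

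Enzymes of nucleotide and one-carbon synthesis were higher in 11 of 30 cases and lower in none, with a median of 0.15, beside 9.68% higher over all genes. The count was 6 without MycER replicate 1 or YAP2S OHT replicate 1 and 7 without YAP2S OHT replicate 2. Ppat, which commits phosphoribosyl pyrophosphate to purine synthesis, was at 21.1 and 22.9 in MycER and 43.8 and 46.8 in YAP2S OHT, a change of 0.77 ± 0.09 (adjusted p = 0.000339). Pfas, further down the same pathway, went from 18.9 and 27.6 to 44.7 and 43.6, a change of 0.67 ± 0.10. Both libraries of YAP2S OHT were above both of MycER. Dhodh, the mitochondrial step of pyrimidine synthesis, changed by 0.69 ± 0.10 and Shmt1, which passes 1-carbon units from serine to folate, by 0.58 ± 0.09. Impdh2, the rate-limiting enzyme of guanine nucleotide synthesis, was at 128.4 and 116.9 in MycER against 99.5 and 113.2 in YAP2S OHT. Its change was 0.31 ± 0.08 after quantile normalization (adjusted p = 0.0191) but -0.21 as deposited (adjusted p = 0.295) and -0.17 by voom (adjusted p = 0.349), so its direction depends on the scaling. It also did not pass without MycER replicate 1 (adjusted p = 0.0926) or either YAP2S OHT library (0.126 and 0.0825).

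**Figure D4:**
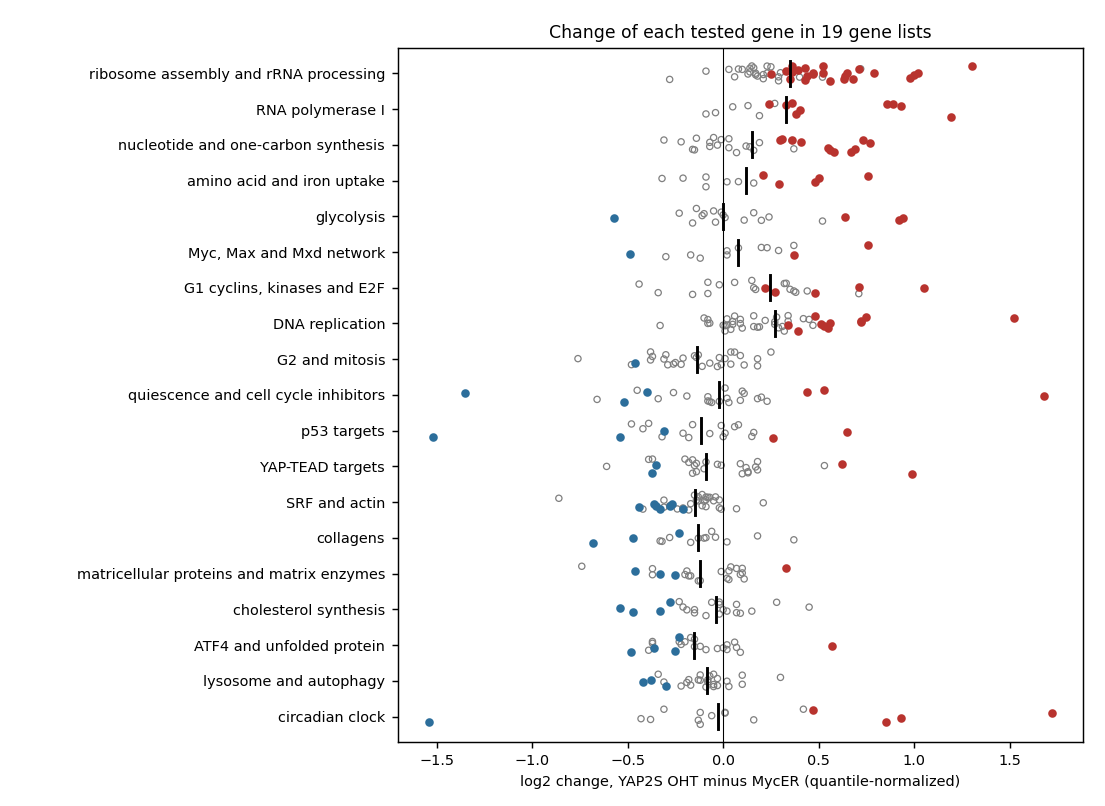
Log2 change of YAP2S OHT minus MycER after quantile normalization (horizontal axis) of each tested gene in 19 lists (vertical axis), with filled red points for genes called higher, filled blue for called lower, open circles for the rest, and a black bar at each list's median. The medians are 0.35 for ribosome assembly, 0.33 for RNA polymerase I and 0.27 for DNA replication, and the actin list has 7 filled points, all lower.

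Genes for uptake and sugar use were called less evenly, beside shares of 9.68% higher and 7.45% lower over all genes. Of 12 transporters for amino acids, lactate, glucose and iron, 5 were higher and none lower. The count was 2 as deposited, without MycER replicate 1 and without YAP2S OHT replicate 1, and 1 without YAP2S OHT replicate 2. The list was led by Slc16a1, a carrier of lactate, at 21.4 and 26.98 in MycER and 47.4 and 49.99 in YAP2S OHT, a change of 0.76 ± 0.07 (adjusted p = 6.11e-05). Of 19 glycolysis genes 3 were higher and 1 lower, with a median of 0.00. Pdk1, a kinase that inhibits pyruvate dehydrogenase, rose by 0.94 ± 0.14, and Pfkfb3, which makes the activator of phosphofructokinase, by 0.92 ± 0.15. Gapdh, a glycolytic enzyme often used as a reference gene, was at 85.1 and 55.5 in MycER and 39.0 and 45.4 in YAP2S OHT, a change of -0.57 ± 0.13 (adjusted p = 0.0131). It was also at 83.6 to 102.2 in the 3 shallowest libraries of the study against 33.3 to 55.6 in the others, and without MycER replicate 1 its change was -0.40 (adjusted p = 0.107), with an adjusted p of 0.126 without YAP2S OHT replicate 1. Dhps, which makes deoxyhypusine in the translation factor eIF5A, rose by 0.56 ± 0.08 (adjusted p = 0.00163), while the 12 genes of polyamine metabolism held 2 higher and 2 lower. Translation factors (2 higher and 2 lower of 26), cytosolic aminoacyl-tRNA synthetases (1 and 1 of 20) and chaperones with the CCT subunits (1 and 2 of 16) had medians of 0.01, -0.07 and -0.03. These 3 lists depend on the scaling. As deposited they held 1 and 5, 1 and 6, and 0 and 6, with medians of -0.22, -0.16 and -0.51. Of all 13025 genes 2094 were higher and 470 lower as deposited. By voom the lists held 0 and 4, 1 and 1, and 0 and 2.

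Within the Myc network 2 of 13 genes were higher and 1 lower, where 9.68% and 7.45% of all genes were. Mxi1, which competes with Myc for Max, was at 4.17 and 5.41 in MycER and 11.0 and 10.3 in YAP2S OHT, a change of 0.76 ± 0.11 (adjusted p = 0.00126). Max rose by 0.37 ± 0.07 (adjusted p = 0.00741, and 0.0825 without YAP2S OHT replicate 2). Myc itself, for which the sources used here do not say whether reads from the MycER transgene were counted, was at 40.2 and 55.0 in MycER and 36.9 and 32.98 in YAP2S OHT. Its change of -0.49 ± 0.13 (adjusted p = 0.0289) did not pass as deposited (-0.42, adjusted p = 0.0637), after cyclic loess (adjusted p = 0.0514), or without MycER replicate 2 (-0.32, adjusted p = 0.133), YAP2S OHT replicate 1 (0.0862) or YAP2S OHT replicate 2 (0.177). Esr1, whose hormone-binding part the fusion carries, was at 1.07 and 1.09 in MycER and 0.902 and 1.11 in YAP2S OHT, a change of -0.22 ± 0.15 (adjusted p = 0.322).

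Of the cell cycle, genes of G1 and DNA replication were called higher, beside a background of 9.68%. Of 22 genes for G1 cyclins, their kinases and E2F factors 5 were higher and none lower (7 as deposited, 2 by voom and 3 without YAP2S OHT replicate 1), and of 45 replication genes 11 were higher and none lower, with a median of 0.27. Ccne1, the cyclin of the G1 to S transition, was at 7.54 and 12.6 in MycER and 28.3 and 26.0 in YAP2S OHT, a change of 1.05 ± 0.16 (adjusted p = 0.00147). E2f3, a transcription factor for S-phase genes, changed by 0.48 ± 0.08 and Cdt1, a licensing factor for replication origins, by 0.55 ± 0.10. Ung, which removes uracil from DNA, went furthest of its list, from 3.23 and 4.89 to 17.6 and 15.4, a change of 1.52 ± 0.15 (adjusted p = 0.000118). Mcm5, a subunit of the replicative helicase, was at 33.5 and 34.9 against 44.0 and 44.7, with a change of 0.22 ± 0.13 that did not pass (adjusted p = 0.264). As deposited 20 replication genes were higher and none lower, where 2094 of all 13025 genes were higher. In a fit to the 4 libraries alone 4 replication genes were higher and none lower, where 424 of 12181 genes tested were higher. Fewer were also called without MycER replicate 1 or without either YAP2S OHT library, where fewer of all genes were called as well. Without MycER replicate 1 the median of the list was 0.23. Of 30 genes for G2 and mitosis none were higher and 1, Kif23, was lower by limma (adjusted p = 0.0253), and the median was -0.14. After cyclic loess 3 were lower and none higher, where 978 of all 13025 genes were lower. As deposited 1 was higher and none lower. The median of this list was -0.22 without MycER replicate 1. Kif23, a kinesin of cytokinesis, did not pass as deposited (-0.20, adjusted p = 0.492), without MycER replicate 2 (0.108) or either YAP2S OHT library (0.0947 and 0.156), or in a fit to the 4 libraries alone (0.132).

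Cell cycle inhibitors and p53 targets were called in both directions, beside 9.68% higher and 7.45% lower over all genes. Of 25 genes tied to quiescence 3 were higher and 3 lower, and 1 and 2 without either YAP2S OHT library. Rgcc, a regulator of the cell cycle, was at 0.62 and 1.08 in MycER and 5.65 and 5.79 in YAP2S OHT, a change of 1.68 ± 0.19 (adjusted p = 0.000246). Its values rest on 1 and 7 reads in MycER and 65 and 52 in YAP2S OHT. Ccng2, described above, was the lowest of the list. Btg1, an antiproliferative gene, was at 22.2 and 27.01 against 20.2 and 18.9, a change of -0.52 ± 0.09 (adjusted p = 0.00287, and 0.0633 as deposited). Cdkn1b, the inhibitor p27 of cyclin-dependent kinases, was at 19.7 and 25.7 against 19.97 and 19.91, so that the groups overlapped. Its change of -0.40 ± 0.08 (adjusted p = 0.00876) was -0.17 as deposited (adjusted p = 0.332) and did not pass without either YAP2S OHT library (adjusted p = 0.0877 and 0.0518). Of 20 p53 targets 2 were higher and 3 lower, and 1 and 1 without either YAP2S OHT library, with Aen, a p53-induced exonuclease, at 20.4 and 27.1 against 44.2 and 45.1, a change of 0.65 ± 0.12 (adjusted p = 0.00374), and Trp53inp1 at the other end.

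YAP-TEAD targets were called about as often as all genes, of which 9.68% were higher and 7.45% lower. Of 27 measured, 2 were higher and 2 lower (2 and 5 as deposited), with a median of -0.09, and none were lower without either YAP2S OHT library. Fjx1, the homolog of a secreted fly kinase, was the highest, at 15.4 and 16.9 in MycER and 40.6 and 40.7 in YAP2S OHT, a change of 0.99 ± 0.12 (adjusted p = 0.000465). Ctgf, a matricellular protein and a standard YAP readout, was at 170.9 and 139.3 in MycER and 103.4 and 118.4 in YAP2S OHT. Cyr61, of the same family, was at 389.9 and 202.7 against 136.1 and 163.2, and Ankrd1, a muscle ankyrin-repeat protein, at 163.5 and 125.2 against 90.7 and 98.1. All 3 were lower in both YAP2S OHT libraries as deposited, with changes of -0.48, -0.91 and -0.60, but after quantile normalization the changes were 0.17 ± 0.12 (adjusted p = 0.37), 0.13 ± 0.06 (0.163) and -0.03 ± 0.14 (0.917). These genes lie in the compressed range, and for Ctgf and Cyr61 the direction depends on the scaling. Yap1 itself was at 17.04 and 26.1 in MycER and 23.0 and 20.8 in YAP2S OHT, with a change of -0.22 ± 0.16 that did not pass (adjusted p = 0.371) and was 0.05 as deposited. Whether reads from the mutant were counted as Yap1 is not given in the sources used here. The TEAD element, GGAATG or CATTCC, was in the window of 9 of 19 such targets (47.4%) and of 1466 of the 10035 tested genes (14.6%).

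Genes of actin and collagen were called lower where they were called at all. Of 36 SRF and actin genes 7 were lower and none higher, with a median of -0.15, beside a background of 7.45% lower. This list is abundant and depends on the scaling, with 24 lower as deposited, 22 after cyclic loess and 17 by voom, and none higher in each. Of all 13025 genes 470, 978 and 571 were lower in these scalings. As deposited, 292 of the 1550 genes with a mean of 50 RPKM or more were lower and 60 higher. None of the list passed in a fit to the 4 libraries alone, and calls were also lost without either YAP2S OHT library. Actg2, smooth muscle gamma actin, was at 158.6 and 102.1 in MycER and 70.5 and 80.6 in YAP2S OHT, a change of -0.28 ± 0.06 (adjusted p = 0.00681). Pdlim7, an actin-associated scaffold, changed by -0.35 ± 0.08, Tpm1, tropomyosin 1, by -0.27 ± 0.06, and Vcl, vinculin, by -0.33 ± 0.07. All 4 lost their call without YAP2S OHT replicate 1, with adjusted p of 0.0838, 0.0771, 0.107 and 0.0911, Tpm1 also without MycER replicate 1 (0.0747), and Pdlim7 and Vcl without YAP2S OHT replicate 2 (0.0733 and 0.0687), and Vcl by voom (0.244). Of 15 collagens 3 were lower and none higher, and 1 was lower without MycER replicate 1 or either YAP2S OHT library. Col1a2, a chain of type I collagen, was at 176.6 and 98.9 against 64.5 and 72.1, a change of -0.47 ± 0.10 (adjusted p = 0.00817, and 0.0663 without MycER replicate 1 and 0.0743 without YAP2S OHT replicate 1). Col11a1, a chain of a minor fibrillar collagen, was at 16.1 and 26.3 against 16.3 and 13.8, so that the groups overlapped, and its change was -0.68 ± 0.13 (adjusted p = 0.00671, 0.131 as deposited, and 0.067 without YAP2S OHT replicate 2). Matrix enzymes and matricellular proteins had 1 higher and 3 lower of 23 (0 and 8 as deposited), cholesterol synthesis 0 and 4 of 22, and lysosome and autophagy genes 0 and 3 of 26, beside 9.68% and 7.45% over all genes. Without either YAP2S OHT library none of these 3 lists held a call, and without MycER replicate 1 there were 2, 1 and 0 lower and none higher.

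Several regulators outside these groups changed as well. Of 16 clock genes 4 were higher and 1 lower, against 9.68% and 7.45% of all genes. The 4 became 2 without either YAP2S OHT library and 1 in a fit to the 4 libraries alone. Arntl (Bmal1), the activating arm of the clock, was at 5.15 and 5.21 in MycER and 1.77 and 1.23 in YAP2S OHT, a change of -1.54 ± 0.13 (adjusted p = 5.52e-05). Bhlhe41 (Dec2), an E-box-binding repressor, was at 0.798 and 3.78 against 10.2 and 10.3, a change of 1.72 ± 0.28 (adjusted p = 0.00217). The libraries of both groups did not overlap in either gene. Bhlhe41 rested on 2 and 38 reads in the MycER libraries, and by limma it did not pass in a fit to the 4 libraries alone (adjusted p = 0.0746). Dbp, an output factor of the clock, rose by 0.93 ± 0.17, and Cry1, a repressor, by 0.47 ± 0.09, with an adjusted p of 0.0591 for Dbp without YAP2S OHT replicate 1 and of 0.0623 for Cry1 without replicate 2. Slc30a1, a zinc exporter, was at 3.04 and 4.32 against 11.3 and 11.2, a change of 1.14 ± 0.16 (adjusted p = 0.000972). Spry1, a feedback inhibitor of ERK signalling, was at 2.05 and 2.61 against 9.27 and 7.63, a change of 1.28 ± 0.21 (adjusted p = 0.00229). Xbp1, a transcription factor of the unfolded protein response, was at 100.5 and 81.8 against 55.2 and 54.3, a change of -0.48 ± 0.07 (adjusted p = 0.000954). Pparg, a nuclear receptor of adipocytes, was at 1.97 and 2.77 against 7.13 and 6.38, a change of 0.98 ± 0.17 (adjusted p = 0.00294). No gene passed in the lists for TGF-beta signalling (20 genes), cytokines (14) and the interferon response (9).

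The fibroblast label rests on part of its markers. Col1a1, Col1a2, Vim and Pdgfrb were at 46.6 RPKM or more in all 4 libraries, whereas Thy1, Dcn, Lum, Pdgfra and Fap were at 0.667 or less. The sum of the 12 fibroblast markers was 1574.7 and 837.9 in MycER and 551.5 and 629.3 in YAP2S OHT, and 4 of the 8 tested were called lower and none higher, beside 7.45% lower over all genes. None passed without MycER replicate 1 or YAP2S OHT replicate 1, and 1 without YAP2S OHT replicate 2. Vim, an intermediate filament protein, had adjusted p of 0.134, 0.184 and 0.127 in these 3 fits. Of markers of other cell types, the macrophage, muscle, neural and epithelial lists held no called gene among 5, 2, 3 and 1 tested, and no endothelial marker reached the filter. The adipocyte list had 2 of 4 higher, Pparg and Cebpa, beside 9.68% higher over all genes. Its sums were 7.38 and 6.15 in MycER and 12.6 and 11.2 in YAP2S OHT, while the defining markers Adipoq and Plin1 were at 0 in all 4 libraries. Cebpa, a transcription factor of adipocytes, did not pass without MycER replicate 2 (adjusted p = 0.0555) or either YAP2S OHT library (0.121 and 0.0586), and the list then had 1 higher gene. In bulk RNA, fewer cells of a type and less RNA per cell cannot be told apart.

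The same labelled difference was measured again with Y27 in both groups, in the libraries YAP2S OHT Y27 and MycER Y27, none of which is among the 4. Depth was 9.38 and 10.2 M reads in YAP2S OHT Y27 and 6.29 and 10.2 M in MycER Y27. In that pair 1795 of 13028 genes passed (13.8%), 991 higher (7.61%) and 804 lower (6.17%). Of the genes higher without Y27, 654 were higher with it, 51.9% of the former and 66.0% of the latter. Of the lower genes 290 were shared, 29.9% and 36.1%, and only 2 genes were called in opposite directions. Across the 13025 genes, which are not independent replicates, Pearson's r was 0.54 and Spearman's rho 0.50 between both sets of changes. Polr1b changed by 1.12 ± 0.08 with Y27, Rrp9 by 1.05 ± 0.10, Il15ra by 2.03 ± 0.12, Trp53inp1 by -1.55 ± 0.19 and Arntl by -1.18 ± 0.13. Of the ribosome assembly genes 33 were higher and none lower with Y27, with a median of 0.48, and of the replication genes 5 were higher, with a median of 0.05.

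**Figure D5:**
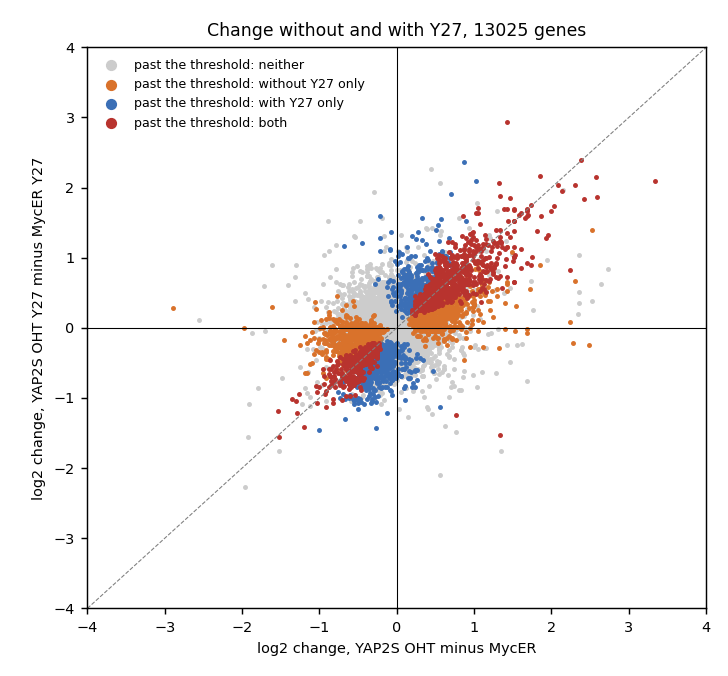
Log2 change of YAP2S OHT Y27 minus MycER Y27 (vertical axis) against that of YAP2S OHT minus MycER (horizontal axis) for 13025 genes, coloured by which pair passed an adjusted p of 0.05, with a dashed line of equal change. The genes called in the same direction in both pairs, 654 higher and 290 lower, lie in the quadrants of equal sign. Another 2 genes called in both pairs have opposite signs, and r across genes is 0.54.

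The difference between the pair without Y27 and the pair with Y27 was tested for each gene, and 0.0% of genes passed. By limma 1357 had an unadjusted p under 0.05, and voom on the recovered reads called 1. The count depended on the libraries, since it was 2778 without YAP2S OHT Y27 replicate 2, from the group with the widest spread between replicates, and 161 without MycER replicate 2. Rgcc changed by 1.68 without Y27 and by -0.07 ± 0.19 with it, a difference of 1.75 ± 0.26 that did not pass (adjusted p = 0.159). Slc30a1 changed by 1.14 and 0.47, Bhlhe41 by 1.72 and 0.55, and Pparg by 0.98 and 0.30, with differences of 0.67 ± 0.23, 1.17 ± 0.39 and 0.68 ± 0.24, each at an adjusted p of 0.477. Rasl11a changed by 3.34 and 2.10, a difference of 1.24 ± 0.34 (adjusted p = 0.444).

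The other labelled pair that shares no library with this one, MycER OHT Y27 against YAP2S, joins libraries on the high side of the 3 genes. There 4623 genes passed (35.5%), with 17.8% of all genes higher and 17.7% lower, and the difference between its changes and those of YAP2S OHT against MycER passed in 2851 (21.9%), 1428 higher (11.0%) and 1423 lower (10.9%). In that pair, unlike here, the OHT group was the shallow one, at 3.63 and 2.62 M reads against 14.75 and 13.05 M, and Y27 was labelled in 1 group only. Il15ra changed by 2.47 there and 2.30 here, with no call on the difference of -0.17 (adjusted p = 0.48), and St6galnac4 by 1.75 and 1.81. Genes of quiescence were lower there in 15 of 25 cases and higher in 2, with a median of -0.52 against -0.02 here, and 9 of the 25 differences passed, all higher here. Cdkn1b changed by -1.01 there and -0.40 here, a difference of 0.61 (adjusted p = 0.00592). Of the immediate early genes 2 were higher and 10 lower there, against 2 and 1 of 28 here, with 9 differences passed, all higher here. Of the actin genes 6 were higher and 1 lower there, with 10 differences passed, all lower here. Lars2 changed by 2.26 there and -1.46 here, in each case higher in the shallow group.

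Libraries labelled MycER OHT were also compared with the same MycER libraries, so both comparisons share the controls and their chance errors, and values are only set side by side. There 5110 of 13028 genes passed (39.2%). Rasl11a changed by 2.84 in MycER OHT and 3.34 in YAP2S OHT, Polr1b by 0.86 and 0.93, Ung by 1.53 and 1.52, Rgcc by 2.35 and 1.68, and Arntl by -1.21 and -1.54. Ctgf changed by -0.56 and 0.17, Pdlim7 by -1.15 and -0.35, and Pdk1 by -0.33 and 0.94.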

How the data were processed

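RNA was sequenced from 16 libraries of mouse embryonic fibroblasts, 2 in each of 8 groups, placed by their labels alone. RNA came from spin columns, and libraries from a TruSeq kit without poly(T) selection. The submitters' processing notes name TopHat2 2.0.8, SAMtools, featureCounts 1.4.5-p1 and mouse build mm9. Annotation and strand setting are not given in the sources used here. The authors deposited RPKM for 21671 genes, a unit inferred from the values, and no column was left unused. Their steps gave whole reads within 0.01 for 100% of values, and library totals of 1.76 to 15.71 M reads.

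Values were set to log2(RPKM + 1), filtered to the 13028 genes that reach 1 RPKM in 2 or more libraries (8643 left out), quantile-normalized, and fitted together with limma 3.58.1 (R 4.3.3), each group with its own mean, the variance following a trend on the mean, and 8 degrees of freedom left. Tests were two-sided, adjusted by Benjamini-Hochberg over all genes tested, with a threshold of 0.05. A count test was planned only for a file of counts, and voom on recovered reads served as an alternative, which called 1608 genes. Tables came from pandas 2.3.3 and numpy 2.4.6 under Python 3.11.15.

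The members, the 38 gene lists and the rule for naming were chosen with earlier results of these data known. To be named by size, a gene had to pass the threshold also as deposited, average 5 RPKM or more and show no overlap of groups (905 higher and 219 lower genes did), and the 10 furthest each way were taken, leaving out RNAs under 200 bases, histone, Gm and Rik genes. To these came up to 4 members of each list by adjusted p and Yap1, Myc, Esr1, Ctgf, Cyr61, Ankrd1, Impdh2, Mcm5, Wdr74 and Heatr1. Some genes so taken are not given, and Imp4 and Cd3eap were chosen after their values were seen.

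Alternatives were values as deposited, cyclic loess, voom, 0.1 in place of 1 as pseudocount, a filter at 5 RPKM or none, no trend, a replicate block, a fit to the compared libraries alone, histone genes and short RNAs left out, a minimum log2 change of 0.5, and each library left out. Leaving out both YAP2S OHT Y27 libraries and crossing the replicate numbers were added after the data were seen. On data simulated for YAP2S OHT against MycER, 14.0%, 90.0% and 100.0% of 50 genes each with a log2 change of 0.5, 1 and 2 were found, with 17 false calls among 12270 genes. The simulation gave every gene the same dispersion, changed only genes averaging 5 RPKM or more, and held no compression with depth. It left out the wider spread between replicates of some groups here, so these rates need not hold for the real libraries. Promoter windows are RefSeq, build GRCm38.p6, matched for 10035 genes by symbol or synonym, and no mm9 coordinates were used.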

Additional observations from a re-analysis of the deposited data

Results flagged for a closer look

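Ctgf moved in opposite directions as deposited in the pair without Y27 and in the pair with it. Without Y27 it was at 170.9 and 139.3 RPKM in MycER and lower, at 103.4 and 118.4, in YAP2S OHT. With Y27 it was at 11.3 and 14.0 in MycER Y27 and higher, at 17.8 and 15.96, in YAP2S OHT Y27. After quantile normalization the changes were 0.17 and 0.35, and the difference of -0.18 ± 0.17 was tested with limma and did not pass (adjusted p = 0.665). The values without Y27 lie where RPKM is compressed with depth, those with Y27 do not, and the part of this in the opposite directions was not tested.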

How the results depend on the processing

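Of YAP2S OHT against MycER, 2231 genes passed, 1261 higher and 970 lower. The count stayed within 1.5 times under cyclic loess, a pseudocount of 0.1, no filter, a filter at 5 RPKM, no trend, voom and without histone genes or short RNAs, from 1608 to 2408. As deposited 2094 were higher and 470 lower, and voom called 571 lower. With a log2 change above 0.5 as well 1289 passed, 809 higher and 480 lower. With only the 4 libraries 562 passed, 424 higher and 138 lower. Without both YAP2S OHT Y27 libraries, an alternative chosen after seeing the data, 3592 passed, 1770 higher and 1822 lower. Leaving out 1 library gave 549 to 3085 in all, 422 to 1637 higher and 127 to 1448 lower, lowest without YAP2S OHT replicate 1 and highest without MycER replicate 2. The cause was not tested.

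The difference from the pair with Y27 passed in 0 genes by limma and in 5 as deposited, 1 after cyclic loess, 2 with a pseudocount of 0.1, 5 with no filter and 1 by voom, and leaving out 1 library gave 0 to 2778. The difference from MycER OHT Y27 against YAP2S passed in 2851 genes and in 6843 as deposited, and leaving out 1 library gave 1221 to 4012. Whether replicate numbers pair the libraries is not given in the sources used here. Deviations of same-numbered libraries had a correlation of -0.172 across genes. Replicate 1 was the shallower library in MycER and the deeper in YAP2S OHT, so this correlation cannot decide it. With the number as a block 1926 genes passed, and with the YAP2S OHT numbers crossed, chosen after seeing the data, 1987. Neither fit changed the call of a named gene, and each left 2 fibroblast markers lower in place of 4.

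Directions turned with the scaling in 4 named genes. Ctgf was at -0.48 as deposited (adjusted p = 0.0263), Cyr61 at -0.91 as deposited (0.0199) and -0.50 by voom (0.0258), and Impdh2 at -0.21 as deposited and -0.17 by voom, and Yap1, without a call in either, went from -0.22 to 0.05 as deposited. A fit to the 4 libraries alone left 23 named genes short of the threshold. The shallow MycER replicate 1 limits low genes, where 1 read per kilobase is 0.567 RPKM, and 2 libraries per group do not show that a gene without a call did not change.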
